A study of Danio rerio with 2 samples.

Results

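The endothelial junction genes described here are 7 zebrafish genes chosen by name, out of 27771 features counted in each library. They are cdh5 (ENSDARG00000075549), cldn5a (ENSDARG00000043716), cldn5b (ENSDARG00000014059), esama (ENSDARG00000077039), pecam1 (ENSDARG00000060263), clec14a (ENSDARG00000103533) and rasip1 (ENSDARG00000074829). Each symbol matched 1 feature, and all 7 were detected in both libraries.

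Endothelial cells line blood vessels and hold to one another at adherens junctions, built on cadherins, and at tight junctions, built on claudins. These contacts keep the vessel wall sealed, and they are remodelled when vessels sprout, form a lumen or change shape. In the embryonic trunk, a subset of cells in the floor of the dorsal aorta leaves the vessel wall and becomes blood progenitors, a step called the endothelial-to-haematopoietic transition, in which the leaving cell gives up its contacts with its endothelial neighbours. VE-cadherin, the product of cdh5, is the adherens junction cadherin of endothelium. Claudin-5 is the main claudin of endothelial tight junctions in vertebrates, and zebrafish carry it as the duplicates cldn5a and cldn5b. Esama and Pecam1 are immunoglobulin-domain adhesion proteins of endothelial contacts, Clec14a is a C-type lectin-domain glycoprotein of the endothelial surface, and Rasip1 is a cytoplasmic partner of the small GTPase Rap1 that vessels need to form a lumen.

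Single-cell RNA sequencing (10x Genomics, 3′ v2.1 chemistry) was performed on cells from zebrafish trunks at 27 hours post-fertilisation, dissociated with liberase and sorted by flow cytometry. The mutant library came from embryos carrying the miR-223(ya303) allele with the driver Tg(miR-223:KalTA4)ya363, the responder Tg(5xUAS:eGFP)nkuasgfp1a and the endothelial reporter Tg(kdrl:hras-mCherry)s896. The wildtype library came from Tg(miR-223:KalTA4)ya362 embryos with the same UAS and kdrl transgenes, so the driver's allele number also differs between the lines. The kdrl promoter, active in endothelium, drives the membrane mCherry used in the sort. The number of embryos per library is not given in the sources used here. There was 1 library per genotype, so no difference between genotypes could be tested, and genotype cannot be told apart from clutch, sort and library preparation. The microRNA itself was not analysed here, and the genotypes are as the labels give them.

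The mutant library held 9176 barcodes and 125149083 unique molecular identifiers (UMIs, each marking 1 captured RNA molecule), and the wildtype library held 8702 barcodes and 92241952 UMIs. After filtering, 8240 mutant and 7481 wildtype cells were kept, with medians of 9778 and 8316 UMIs per cell. The libraries shared 98 barcode sequences. Cells were clustered without the 7 genes, and clusters were named from marker genes, none of which is a member. Endothelial-like clusters held 4353 mutant and 5184 wildtype cells. They comprised arterial-like cells (1140 mutant and 1436 wildtype), venous-like cells (2623 and 3368) and 1 cluster of neither kind, led by aqp8a.1 and capn8 (590 and 380). Different venous-like clusters dominated in each library. Cluster 9 held 677 mutant and 40 wildtype cells, and cluster 1 held 68 mutant and 1525 wildtype cells. Erythroid-like cells numbered 2640 in the mutant library and 1291 in the wildtype library, although the sort was for an endothelial reporter. A progenitor-like cluster led by spi2 and myb held 146 mutant and 215 wildtype cells.

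All 7 genes were more abundant in endothelial-like cells than in the other named classes together. A level is the summed UMIs of a gene in a class, scaled to the class total and given as CPM. Cdh5 stood at 492 CPM in mutant endothelial-like cells and 431 CPM in wildtype ones, which was 54.8-fold and 36.2-fold above the other cells of the same library. Cldn5b, at 1216 CPM in mutant and 1546 CPM in wildtype endothelial-like cells, was 71.0-fold and 48.7-fold above. Clec14a, at 862 and 804 CPM, was 70.9-fold and 45.1-fold above. The folds of esama, pecam1 and rasip1 lay between 48.5 and 83.2 in the mutant library and between 42.4 and 48.0 in the wildtype library. Cldn5a stood apart, with 5.82-fold in the mutant library and 4.50-fold in the wildtype library. Erythroid-like cells supplied most UMIs of the pooled other cells, so these folds are mainly against them. Cdh5 stood there at 1.49% of its endothelial-like level in the mutant and 1.96% in the wildtype library. In the remaining classes it ran from 0.293% (epidermal-like) to 6.56% (neural-like) in the mutant library. In the wildtype library it ran from 3.22% (notochord-like) to 10.3% (progenitor-like). A gene was called between classes when the levels differed by at least 2-fold and the 95% counting interval of their ratio left out equality, among features averaging at least 5 CPM. By that rule, 7 of 7 members were called higher in both libraries, against 41.9% of tested features in the mutant library and 39.9% in the wildtype library. None was called lower, against 11.5% and 11.3%. In the authors' own clusters, described below, cldn5a did not reach 2-fold, with log2 ratios of 0.49 in the mutant and 0.64 in the wildtype library. The log2 ratio of cdh5 was also smaller there, at 4.17 in the mutant and 3.52 in the wildtype library, against 5.63 and 5.06 here. All intervals treat UMIs as independent and cover counting error only.

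The level of cldn5a outside endothelium set it apart from its duplicate and from the other 5 genes. In neural-like cells it reached 49.99 CPM in the mutant library and 115 CPM in the wildtype library, which was 268% and 221% of the endothelial-like level. Notochord-like cells held it at 39.9 CPM in the mutant and 91.1 CPM in the wildtype library. These classes were small, with 113 mutant and 100 wildtype neural-like cells and 49 and 48 notochord-like cells. In neural-like cells the other 6 genes lay between 1.86% and 6.67% of their endothelial-like level in the mutant library and between 4.65% and 7.78% in the wildtype library. In erythroid-like cells, which should lack junction proteins of vessels, cldn5a stood at 13.6% of its endothelial-like level in the mutant library and 18.5% in the wildtype library. The other 6 genes lay between 1.05% and 1.83% there in the mutant library and between 1.28% and 1.96% in the wildtype library. In myeloid-like cells only 1 mutant and 2 wildtype UMIs of cldn5a were counted, and epidermal-like cells held 0 in both libraries. An unnamed cluster led by pronephric genes such as cdh17 and slc12a3 (87 mutant and 62 wildtype cells) also held several members, with clec14a at 254 CPM in mutant and 159 CPM in wildtype cells and pecam1 at 122 and 75.0 CPM. The other unnamed cluster (115 mutant and 88 wildtype cells), very shallow and led by genes such as CT027638.1 and klf2a, had levels nearer to those of endothelium, with clec14a at 831 and 808 CPM, cdh5 at 303 and 336 CPM and rasip1 at 228 and 231 CPM. It was left out of the endothelial-like class because it was both shallow and without markers among its leading genes.

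**Figure D1:**
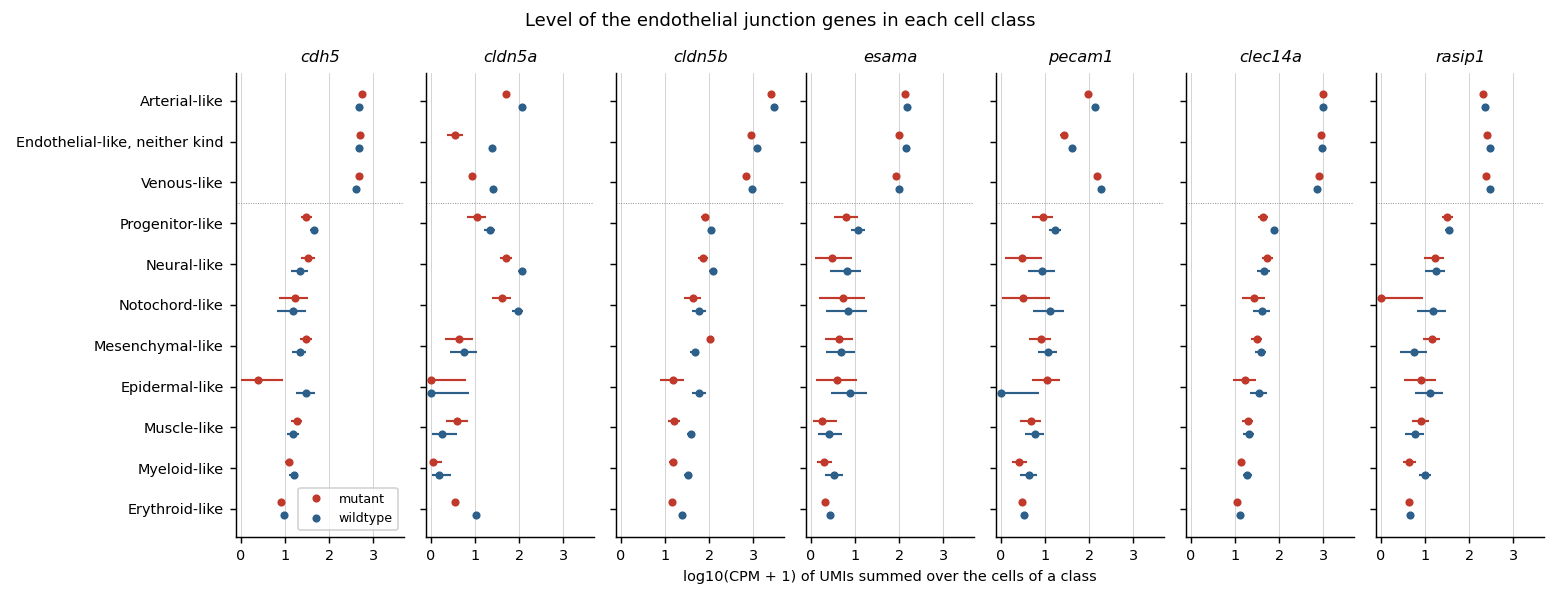
Level of each of the 7 genes in every cell class, as log10(CPM + 1) on the horizontal axis, with the mutant library's point above the wildtype library's and lines for 95% Poisson intervals. A dotted line parts the 3 endothelial kinds from the other classes. For 6 genes the endothelial kinds lie to the right of the other classes. The gap is small for pecam1 in the cluster of neither kind (25.5 CPM mutant, 40.7 CPM wildtype). Cldn5a is as high in neural-like cells (49.99 CPM mutant, 115 CPM wildtype) as in arterial-like ones (50.1 and 117 CPM).

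The order of levels over the classes was read gene by gene, since counts at the 3′ end give no scale for ranking genes against one another. For cdh5, arterial-like cells came first at 539 CPM in the mutant library and 469 CPM in the wildtype library. The cluster of neither kind followed at 508 and 467 CPM, with counting intervals that overlapped the arterial-like ones, and venous-like cells came last of the 3 kinds at 464 and 406 CPM. Cldn5b, esama and clec14a kept that order, with the intervals of the first and second places overlapping only for esama in the wildtype library. Pecam1 and rasip1 had other orders. Venous-like cells were first for pecam1, at 146 CPM in the mutant and 185 CPM in the wildtype library, and the cluster of neither kind was last of the 3 at 25.5 and 40.7 CPM. For rasip1 the cluster of neither kind and the venous-like cells shared the top, and arterial-like cells followed at 203 CPM in the mutant and 228 CPM in the wildtype library. For all genes but cldn5a, every named class outside endothelium stood below all 3 endothelial kinds.

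Depth was made equal by drawing 2000 UMIs from each cell and leaving out shallower cells. In thinned endothelial-like cells, clec14a was seen in 77.8% of mutant and 76.0% of wildtype cells, cldn5b in 70.7% and 76.1%, and cdh5 in 60.1% and 54.2%. Rasip1 was seen in 35.0% of mutant and 40.1% of wildtype cells, esama in 18.3% and 20.4%, and pecam1 in 18.2% and 24.7%. Cldn5a was seen in 3.01% and 8.30%. Shares in erythroid-like cells, which should lack junction proteins of vessels, were taken as a background. For cldn5a they may not be one. Its level there was 13.6% of the endothelial-like level in the mutant and 18.5% in the wildtype library, well above that of the other genes. After thinning, cldn5a was seen there in 0.494% of mutant and 1.55% of wildtype cells. For the other genes the erythroid-like shares ran from 0.228% to 2.92% in the mutant library and from 0.544% to 3.89% in the wildtype library. Before thinning, the median depth was 7146 UMIs in mutant and 6926 in wildtype endothelial-like cells, and 27709 and 30930 in erythroid-like cells. Most thinned endothelial-like cells showed several members at once, with 3 or more of the 7 in 61.9% of mutant cells (95% exact interval 60.4% to 63.4%) and 67.0% of wildtype cells (65.7% to 68.4%). None was seen in 1.93% of mutant and 1.98% of wildtype endothelial-like cells. In erythroid-like cells none was seen in 92.4% of mutant and 89.7% of wildtype cells.

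Between genotypes, 3 of the adhesion genes were lower in mutant endothelial-like cells and none was called higher. Cldn5a had the largest difference of the 7, at 18.6 CPM in mutant cells and 51.9 CPM in wildtype cells, a ratio of 0.359 (95% counting interval 0.327 to 0.393). Only 0.53% of tested features had a lower ratio. Pecam1 stood at 112 CPM in mutant cells and 156 CPM in wildtype cells, a ratio of 0.718 (0.689 to 0.749). Cldn5b stood at 1216 CPM in mutant and 1546 CPM in wildtype cells, a ratio of 0.787 (0.777 to 0.797). These were the 3 of 7 called lower, against 8.68% of 7216 tested features. A call between libraries needed the higher level to be at least 25% above the lower one and an interval that left out equality. Cldn5b lay close to that limit and just missed it in the authors' own clusters (log2 ratio −0.319). No member was called higher, against 13% of features. The median log2 ratio was −0.23 over the 7 genes and 0.04 over all tested features. Without replicate libraries, these intervals say nothing of how much 2 libraries of the same genotype differ.

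The other 4 genes differed by less than 25%, and not all in the same direction. Cdh5 was at 492 CPM in mutant and 431 CPM in wildtype cells, a ratio of 1.14 (1.12 to 1.17). Of all tested features, 73.99% had a lower ratio than cdh5. Clec14a had a ratio of 1.07 (1.05 to 1.09). Esama, at 100 CPM in mutant and 118 CPM in wildtype cells, had a ratio of 0.852 (0.814 to 0.891), and rasip1, at 234 and 273 CPM, had 0.859 (0.834 to 0.885). The adherens junction cadherin was thus on the higher side in mutant cells while both claudin-5 duplicates were on the lower side. For comparison, the receptor gene kdrl, whose promoter drives the sorted reporter, had 229 CPM in mutant and 207 CPM in wildtype endothelial-like cells, a ratio of 1.105 (1.07 to 1.14). Tie1, a second endothelial reference, had 201 CPM in mutant and 197 CPM in wildtype cells. Its ratio of 1.02 (0.989 to 1.06) was within counting error. Haemoglobin and other erythroid marker genes summed to 6812 CPM in mutant and 7249 CPM in wildtype endothelial-like cells, and myeloid markers to 529 and 549 CPM. Their part in these ratios was not tested.

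**Figure D2:**
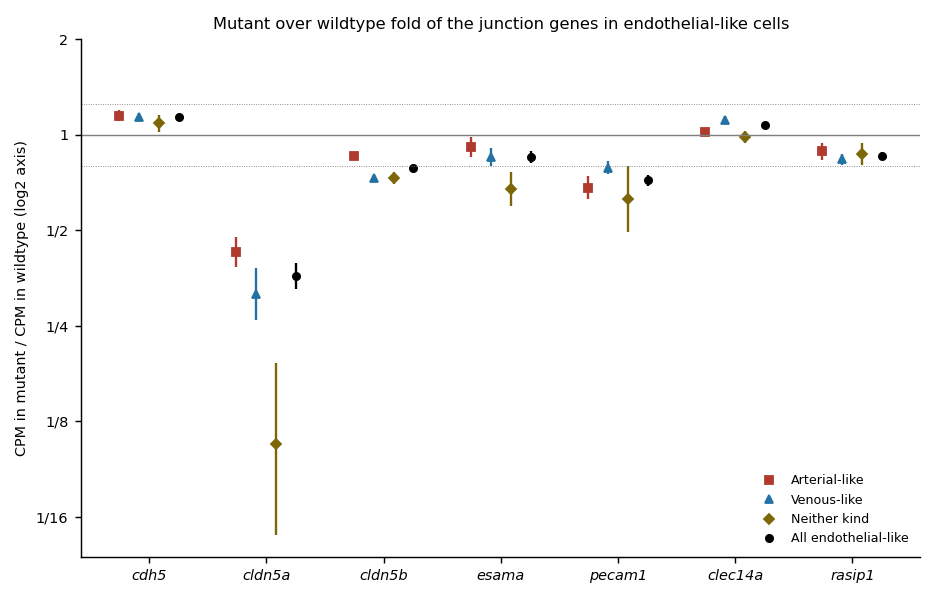
Ratio of the mutant to the wildtype level of each gene (log2-spaced axis) in arterial-like cells, venous-like cells, the cluster of neither kind and all endothelial-like cells, with exact 95% counting intervals. Dotted lines mark a level 25% higher in either library. Cldn5a lies below the lower line in all 4 sets of cells, from 0.427 in arterial-like cells to 0.106 in the cluster of neither kind, while cdh5 lies between equality and the upper line in all 4.

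The lower cldn5a level in the mutant library was present in each endothelial kind. In arterial-like cells it had 50.1 CPM in the mutant and 117 CPM in the wildtype library, a ratio of 0.427 (0.383 to 0.476). In venous-like cells it had 7.74 CPM in the mutant and 24.6 CPM in the wildtype library, a ratio of 0.315 (0.261 to 0.380). The cluster of neither kind had 2.55 and 24.0 CPM, a ratio of 0.106 (0.0546 to 0.191). All 8 endothelial-like clusters were lower in the mutant library beyond counting error, although clusters of 1 library are not replicates. Some of them rested on few UMIs. Cluster 1 had 2 mutant UMIs in 68 cells, cluster 3 had 6 mutant UMIs, and cluster 9 had 5 wildtype UMIs in 40 cells. Outside endothelium the same direction was seen in neural-like cells, with a ratio of 0.436 (0.303 to 0.619), and in notochord-like cells, with 0.438 (0.239 to 0.770). Erythroid-like cells had 2.53 CPM in the mutant and 9.62 CPM in the wildtype library, a ratio of 0.263 (0.219 to 0.315). In mesenchymal-, muscle- and myeloid-like cells the difference was within counting error. The lower count of cldn5a thus extended to some cell classes that are not endothelial, and whether free RNA has a part in the erythroid-like values was not tested.

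Within endothelium, cldn5a was concentrated in a single arterial-like cluster led by nanos1, vegfc, cxcr4a and dll4. That cluster held 10.8% of mutant and 11.3% of wildtype endothelial-like cells, and 64.6% (60.6% to 68.4%) and 58.3% (56.1% to 60.5%) of the cldn5a UMIs. Its level was 121 CPM in mutant and 281 CPM in wildtype cells, against 10.3 and 23.4 CPM in the other arterial-like cluster, which is led by aqp1a.1 and esm1. In thinned cells of the nanos1 cluster, cldn5a was seen in 16.9% of mutant and 37.2% of wildtype cells. Its duplicate did not single that cluster out. Cldn5b had 2470 CPM in mutant and 3087 CPM in wildtype cells of the nanos1 cluster, and 2525 and 2828 CPM in the other arterial-like cluster. Some genes of aortic blood-forming endothelium were measured there too, with gata2b at 49.3 CPM in mutant and 53.6 CPM in wildtype cells and gfi1aa at 57.7 and 36.4 CPM. Their levels in the other endothelial-like clusters were not compared. Other progenitor genes were far below their progenitor-like level. Myb had 19.8 CPM in mutant and 20.6 CPM in wildtype cells, against 377 and 296 CPM in progenitor-like cells. Spi2 had 109 and 186 CPM, against 972 and 1064 CPM.

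Cldn5b was lower in the mutant library in all 8 endothelial-like clusters beyond counting error, and the size of the difference varied between them. Arterial-like cells had 2505 CPM in the mutant and 2923 CPM in the wildtype library, a ratio of 0.857 (0.843 to 0.872), which did not reach the 25% needed for a call. In venous-like cells cldn5b had 681 and 928 CPM, a ratio of 0.734 (0.718 to 0.750). The largest difference was in venous-like cluster 5, led by il13ra2 and plvapb, with 489 CPM in mutant and 940 CPM in wildtype cells. The smallest was in venous-like cluster 1, with 891 and 990 CPM. Lower cldn5b counts were also seen outside endothelium. Erythroid-like cells had a ratio of 0.595 (0.543 to 0.653) and neural-like cells 0.598 (0.436 to 0.815). Myeloid-, muscle- and epidermal-like cells had 0.445, 0.401 and 0.246, also beyond counting error. Apart from neural-like cells, these classes held cldn5b at only 1.1% to 1.2% of its endothelial-like level in the mutant library. In the wildtype library they held it at 1.5% to 3.8%. Epidermal-like cells had 10 mutant and 34 wildtype UMIs. Whether free RNA has a part in these low values was not tested. Mesenchymal-like cells went the other way, at 2.26 (1.67 to 3.09), and notochord-like cells were within counting error.

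Pecam1 was lower in the mutant library in 7 of the 8 clusters and higher in the eighth. Arterial-like cells had 92.4 CPM in the mutant and 136 CPM in the wildtype library, a ratio of 0.682 (0.626 to 0.743), and venous-like cells had 146 and 185 CPM, a ratio of 0.788 (0.751 to 0.827). The exception was venous-like cluster 4, led by otc and sost, with 77.5 CPM in mutant and 47.6 CPM in wildtype cells. Pecam1 was unevenly spread within the venous-like class, reaching 292 CPM in mutant and 327 CPM in wildtype cells of cluster 5. Cluster 4 held 904 mutant and 298 wildtype cells and cluster 5 held 599 and 568, and the part of this make-up in the class ratio was not tested.

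Cdh5 was above its wildtype level in all 8 clusters, beyond counting error in 5, and clec14a was higher beyond error in 4 clusters and lower in 1, the nanos1 cluster (1110 CPM in mutant and 1181 CPM in wildtype cells). Rasip1 was lower in all 8 clusters, beyond counting error in 6, and esama was lower in 7, beyond error in 4. In arterial-like cells 2 of 7 members were called lower, against 8.85% of features, and in venous-like cells 3 of 7, against 9.76%. In the cluster of neither kind 4 of 7 were called lower, against 10.3%, the fourth being esama at 96.3 CPM in mutant and 143 CPM in wildtype cells. No member was called higher in any of these sets, against 13.4%, 15.5% and 9.90% of features.

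**Figure D3:**
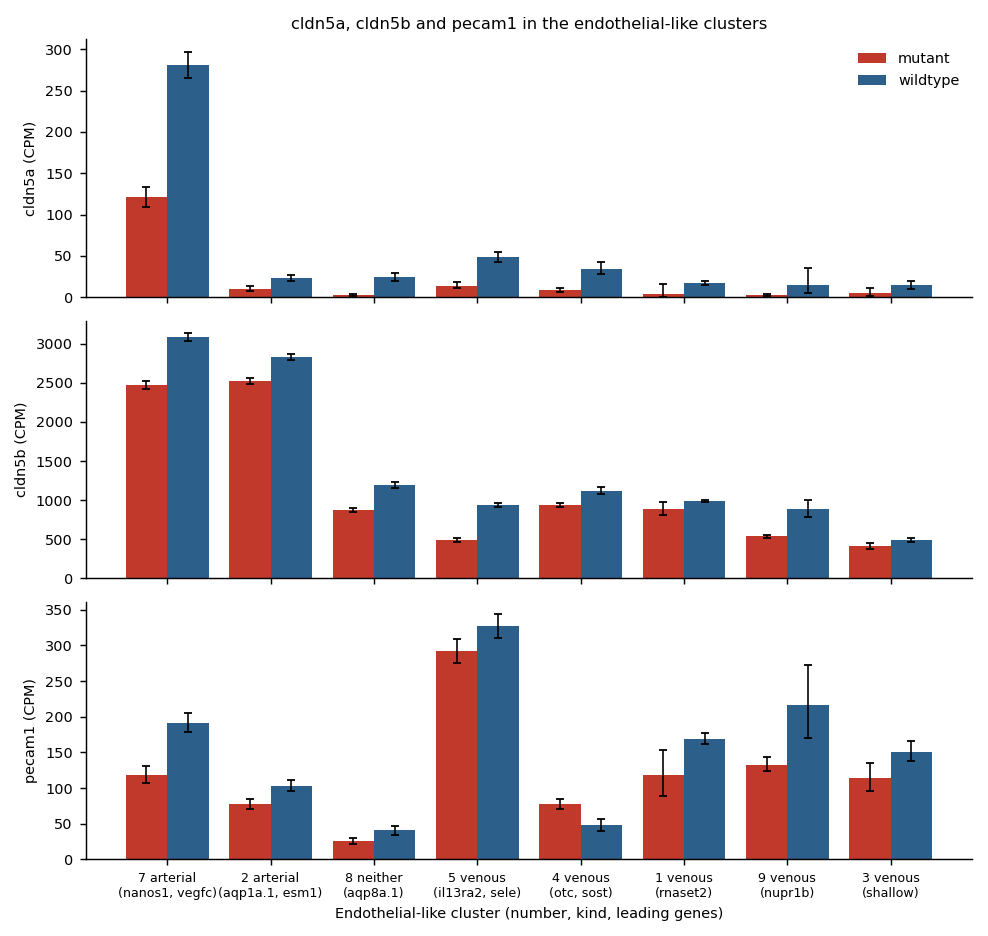
Level in CPM of cldn5a, cldn5b and pecam1 in the 8 endothelial-like clusters, with the mutant bar left of the wildtype bar and 95% Poisson intervals. Cldn5a peaks in cluster 7 at 121 CPM in mutant and 281 CPM in wildtype cells, and pecam1 is higher in the mutant library only in cluster 4, at 77.5 and 47.6 CPM.

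The authors' own clusters gave a second partition of the cells, from a deposited table of mean UMIs per cell. That table gives cluster numbers only, so the classes of its clusters were named here, from the same marker genes. Of its 6 endothelial-like clusters, cldn5a and cldn5b were each lower in mutant cells beyond counting error in 5, and in none was either higher. Pecam1 was lower in 4 and higher in 1, a cluster with 31 mutant and 1925 wildtype cells. Cdh5 was higher in 3 and lower in 1, and rasip1, esama and clec14a were within counting error in 5, 4 and 5 of the 6.

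Both claudin-5 duplicates separated arterial-like from venous-like cells, and the other 5 genes did not reach 2-fold. Cldn5b stood at 2505 CPM in arterial-like and 681 CPM in venous-like cells of the mutant library, a ratio of 3.68 (3.60 to 3.76). In the wildtype library it stood at 2923 CPM in arterial-like and 928 CPM in venous-like cells, a ratio of 3.15 (3.10 to 3.20). The cldn5a ratio was 6.46 (5.34 to 7.86) in the mutant and 4.77 (4.32 to 5.27) in the wildtype library, and it rested on the nanos1 cluster. The other arterial-like cluster had 10.3 CPM in the mutant and 23.4 CPM in the wildtype library, near the venous-like levels. Venous-like cluster 5 exceeded it in both libraries, at 13.9 and 48.5 CPM, and cluster 4 in the wildtype library, at 34.4 CPM. The remaining venous-like clusters were below it. Cldn5a and cldn5b were both called. These were the 2 of 7 members called higher in both libraries, against 9.68% of features in the mutant and 9% in the wildtype library. None was called lower, against 11.7% and 11%.

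Of the rest, esama was 1.64-fold (1.52 to 1.77) higher in arterial-like cells of the mutant library and 1.52-fold (1.43 to 1.62) higher in those of the wildtype library. Clec14a had ratios of 1.26 and 1.38, and cdh5 had 1.16 and 1.15. Pecam1 leaned towards venous-like cells, with arterial-to-venous ratios of 0.632 (0.584 to 0.684) in the mutant and 0.731 (0.689 to 0.774) in the wildtype library. Rasip1 leaned the same way, with ratios of 0.832 and 0.785. These are class averages, and clusters within a class differed. Rasip1 was lowest in the nanos1 cluster, at 129 CPM in mutant and 155 CPM in wildtype cells. The other arterial-like cluster had 244 and 270 CPM, against 243 and 291 CPM in venous-like cells. Pecam1 was highest in venous-like cluster 5, as given above. In the wildtype library the nanos1 cluster had pecam1 at 192 CPM, above the 185 CPM of venous-like cells. The endothelial adhesion genes therefore did not share a single arteriovenous pattern, but every gene kept its side of equality in both libraries.

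**Figure D4:**
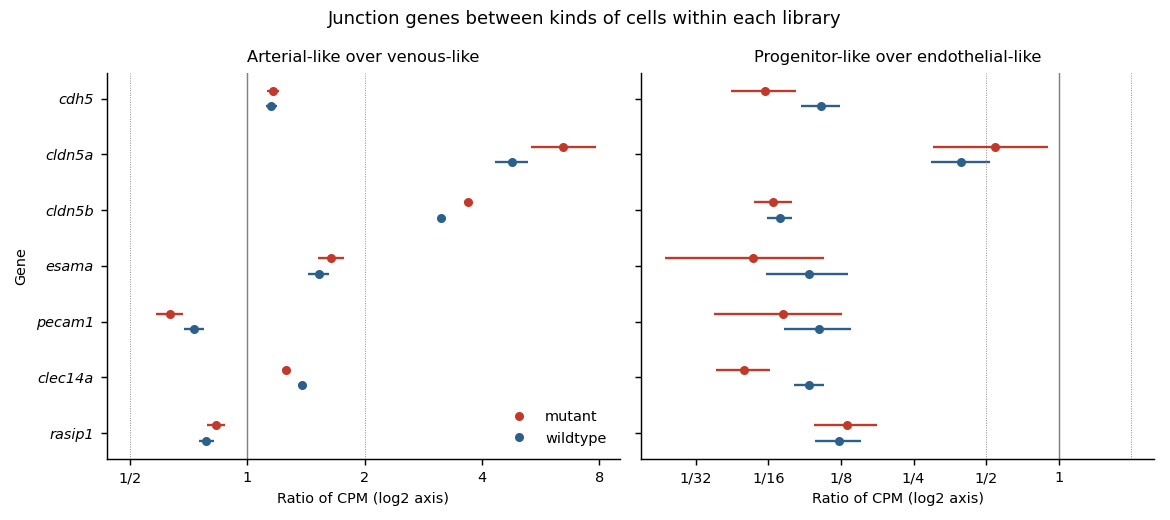
Ratios of levels (log axis) between arterial-like and venous-like cells on the left and between progenitor-like and endothelial-like cells on the right, with the mutant library's point above the wildtype library's, exact 95% counting intervals and dotted lines at 2-fold either way. On the left cldn5a (6.46 mutant, 4.77 wildtype) and cldn5b (3.68 and 3.15) pass 2-fold, and on the right 6 genes lie below 0.15 while cldn5a lies at 0.543 and 0.395.

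Progenitor-like cells carried little RNA of the junction genes relative to endothelial-like cells, and cldn5a was the least reduced. Cldn5a stood at 10.1 CPM in mutant and 20.5 CPM in wildtype progenitor-like cells. These levels were 0.543 (0.302 to 0.903) and 0.395 (0.295 to 0.519) of its endothelial-like level. Cdh5 stood at 29.7 CPM in mutant and 44.6 CPM in wildtype progenitor-like cells, which was 0.0604 (0.0438 to 0.0811) and 0.103 (0.0853 to 0.124) of the endothelial-like level. Cldn5b stood at 79.6 CPM in mutant and 108 CPM in wildtype progenitor-like cells, ratios of 0.0655 and 0.0697. The ratios of esama, pecam1 and clec14a lay between 0.0493 and 0.0721 in the mutant library and between 0.0922 and 0.102 in the wildtype library. Rasip1 kept slightly more, at 0.133 and 0.122. In the mutant library 6 of 7 members were called lower, against 23.6% of features, and in the wildtype library 7 of 7, against 23.2%. None was called higher, against 21.2% of features in the mutant and 18.9% in the wildtype library. Set against arterial-like cells alone, 7 of 7 were called lower in both libraries, against 19.2% of features in the mutant and 18.7% in the wildtype library, and none higher, against 19.7% and 17.6%. Cldn5a then had ratios of 0.202 (0.112 to 0.337) and 0.175 (0.131 to 0.231). After thinning, none of the 7 was seen in 72.9% of mutant and 69.4% of wildtype progenitor-like cells.

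How low the junction genes stood in progenitor-like cells depended on where the cluster's edge was drawn. The 18 endothelial markers that named the classes summed to 426 CPM in mutant and 573 CPM in wildtype progenitor-like cells, against 3701 and 4057 CPM in endothelial-like cells. With a coarser clustering, the class grew to 213 mutant and 288 wildtype cells and took in cells with nanos1, whose level reached 175 CPM in mutant and 141 CPM in wildtype cells, against 27.7 and 33.3 CPM before. In that larger class cdh5 stood at 83.2 CPM in mutant and 79.0 CPM in wildtype cells, still below endothelium. Cldn5a stood at 40.4 CPM in mutant and 73.8 CPM in wildtype cells, above its endothelial-like level. The larger class was not particular to a coarser clustering. At the finer resolution 2 it held 218 mutant and 295 wildtype cells, with nanos1 at 172 and 141 CPM. It was also larger with the members allowed in clustering, with doublets kept and with each library clustered alone. Across these settings cdh5 stood between 73.6 and 90.4 CPM. The class first described was thus the smallest, with the lowest cdh5 levels. The authors' progenitor cluster, led by gata2b and gfi1aa among others (184 mutant and 183 wildtype cells), was like the larger classes. It had cldn5a at 69.8 CPM in mutant and 116 CPM in wildtype cells, cdh5 at 119 and 88.2 CPM, and cldn5b at 359 and 319 CPM. Cldn5a was therefore the gene of the 7 whose direction between progenitor-like and endothelial-like cells was not settled by these data.

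Between genotypes, 5 of 7 members were called lower in mutant progenitor-like cells, against 5.38% of features, and none higher, against 10.8%. The ratio was 0.667 (0.460 to 0.951) for cdh5, 0.572 (0.423 to 0.764) for clec14a and 0.493 (0.258 to 0.888) for cldn5a. Counts were small, and the summed level of the endothelial markers was also lower in the mutant cells of this class, as given above. Single markers differed, with a ratio of 1.07 (0.740 to 1.54) for kdrl and 0.367 (0.148 to 0.798) for tie1. The direction of cdh5 and clec14a turned with the cluster's edge. With the coarser clustering cdh5 had 83.2 CPM in mutant and 79.0 CPM in wildtype cells and clec14a had 152 and 141 CPM. Both were likewise above their wildtype level at resolution 2, with the members allowed in clustering and with doublets kept. With each library clustered alone, cdh5 and clec14a were below it. Cldn5a, cldn5b and pecam1 were lower in mutant cells under all of these rebuilt clusterings, with cldn5b close to equal in the coarser one (232 CPM in mutant and 235 CPM in wildtype cells). In the authors' progenitor cluster cdh5 was higher in mutant cells beyond counting error, while cldn5a and pecam1 were lower. Clec14a, at 221 CPM in mutant and 193 CPM in wildtype cells, cldn5b, at 359 and 319 CPM, and esama, at 42.8 and 36.3 CPM, were above their wildtype level there. These differences were within counting error.

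Across the 29 columns of the authors' table with at least 20 cells (clusters by library), 6 of the 7 genes had similar profiles. Pearson's r of log2(CPM + 10) between any pair of those 6 lay between 0.83 and 0.99, whereas cldn5a had r between 0.35 and 0.50 with them. The columns share libraries and cell classes, so these values are a description. The feature most like cdh5 was clec14a (r = 0.99), and the most like clec14a and the second for cdh5 was si:dkeyp-97a10.2. Esama was most like ldb2a (0.97) and she (0.96). Pecam1 was most like cox4i2 (0.93) and il13ra2 (0.92), and rasip1 was most like clec14a and myct1a (0.98 each). Cldn5b was most like clec14a (0.98) and si:ch211-156j16.1 (0.97). The nearest features to cldn5a were more distant, with myl9a at 0.76 and scube2 at 0.74.

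Other genes of the junction were read from a list of 93 features, of which 34 were abundant enough for the comparison of genotypes in endothelial-like cells. Of these, 3 were called higher and 1 lower in mutant cells, no larger a share than the 13% and 8.68% of all tested features, and their median log2 ratio was −0.03. The highest ratio among those averaging at least 20 CPM belonged to jam2a, a tight junction adhesion gene, with 565 CPM in mutant and 415 CPM in wildtype cells, called higher. Next were tjp2b, a scaffold of tight junctions, with 62.5 and 50.3 CPM, and amotl2a, an angiomotin-family gene, with 39.1 and 32.6 CPM, neither of them called. The lowest was ccm2l, a partner of the cerebral cavernous malformation proteins, with 53.3 CPM in mutant and 86.1 CPM in wildtype cells, the single gene called lower. Jupa (plakoglobin) had 128 and 153 CPM and mcamb 179 and 209 CPM, neither called. The other calls were tjp1b, with 18.7 CPM in mutant and 11.3 CPM in wildtype cells, and cdh6, with 21.1 and 15.9 CPM, both higher and both named after their values were seen.

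Between arterial-like and venous-like cells the adhesion gene mcamb followed cldn5b, with 291 CPM in arterial-like and 117 CPM in venous-like cells of the mutant library and 317 and 148 CPM in the wildtype library. Ccm2l had the opposite pattern, with 24.2 CPM in arterial-like and 70.4 CPM in venous-like mutant cells and 41.9 and 110 CPM in wildtype cells. Between progenitor-like and endothelial-like cells, 23 of 35 tested features of the list were called lower and 3 higher in each library, against 23.6% of all features lower and 21.2% higher in the mutant library and 23.2% and 18.9% in the wildtype library. Cldng was among the higher ones, with 74.2 CPM in mutant progenitor-like cells against 7.65 CPM in mutant endothelial-like cells, and 70.9 against 7.98 CPM in the wildtype library. It was not particular to progenitor-like cells. Erythroid-like cells held it at 92.3 CPM in the mutant and 83.7 CPM in the wildtype library. In endothelial-like cells against other cells, 27 of 33 tested features were called higher and 2 lower in the mutant library, against 41.9% and 11.5% of all features. In the wildtype library 27 of 34 were called higher and 3 lower, against 39.9% and 11.3%.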

How the data were processed

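The authors deposited a count matrix of UMIs per library (matrix header software version 3.0.2, per the file headers) and a table of mean UMIs per cell for 15 clusters and both libraries, a signal that the authors averaged over cells. The submitters' processing notes name bcl2fastq, Cell Ranger, Seurat and the build GRCz11. Multiplied by the cells of each cluster, the deposited signal of all 17822 genes gave whole sums within 1e-06, and those sums were used as counts.

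Cells below 500 genes or above 10% mitochondrial UMIs were left out. Scrublet, run per library at an expected 6%, marked 224 mutant (2.647%) and 39 wildtype (0.519%) cells, which were removed. Cells were clustered with scanpy 1.11.5 (python 3.11.15, 2000 variable genes without the 7 members, 30 principal components, 20 neighbours, leidenalg 0.10.2 at resolution 1), giving 22 clusters, of which 2 stayed unnamed. Counting arterial and venous markers as endothelial ones in naming was decided after the clusters were seen.

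UMIs were summed per class and library. Features were tested at a mean of at least 5 CPM, and log2 ratios used a pseudocount of 1 CPM, which folds in the text do not carry. Intervals of 95% were computed with scipy 1.17.1 and numpy 2.4.6: conditional binomial for ratios, Poisson for levels, Clopper-Pearson for shares. Figures were drawn with matplotlib 3.10.9. Code was tested on simulated data. The genes named were the 7 members and, for each, the 2 features of highest correlation. Per comparison, the 3 highest and 3 lowest other junction genes with at least 20 CPM were named, of which only some are given. Kdrl and tie1 were given as references. Of the listed junction symbols, afdnb, pard3aa, radila, radilb, cd93, emcn and icam3 matched no feature. The members and lists were chosen with earlier results of these data known. Alternatives were other scalings, pseudocounts, filters, folds, clusterings, thinning depths and the authors' clusters. Leaving out the clusters split by library, the shallow cluster or the progenitor-like cells was added after the data were seen.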

Additional observations from a re-analysis of the deposited data

Results flagged for a closer look

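For 2 genes the difference between genotypes ran in opposite directions in endothelial-like and progenitor-like cells. Cdh5 had a log2 ratio of mutant to wildtype of 0.19 in endothelial-like cells and −0.57 in progenitor-like cells. Clec14a had 0.10 in endothelial-like cells and −0.79 in progenitor-like cells. Opposite directions were not particular to these 2 genes. Cldn5b and rasip1, lower in mutant endothelial-like cells, were higher in mutant mesenchymal-like cells. Their ratios there were 2.26 (1.67 to 3.09) and 2.91 (1.12 to 8.90), the second from 19 mutant and 6 wildtype UMIs. Differences between classes were not tested, since there was 1 library per genotype. The lower cdh5 and clec14a levels in mutant progenitor-like cells held in the smallest such class and with each library clustered alone. They depended on how the edge of the class was drawn. Cdh5 had 83.2 CPM in mutant and 79.0 CPM in wildtype progenitor-like cells at resolution 0.5, 85.8 and 80.5 CPM at resolution 2, 74.3 and 73.6 CPM with the members allowed in clustering, and 90.4 and 78.2 CPM with doublets kept. Clec14a was also higher in mutant cells under those 4 settings, at 152 CPM against 141 CPM in wildtype cells at resolution 0.5. With each library clustered alone cdh5 had 75.1 CPM in mutant and 82.2 CPM in wildtype cells, and clec14a had 136 and 163 CPM. In the authors' progenitor cluster cdh5 stood at 119 CPM in mutant and 88.2 CPM in wildtype cells, beyond counting error, and clec14a at 221 and 193 CPM, within it.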

How the results depend on the processing

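Of 106 recomputed counts of called members, 99 stayed within 1.5 times the reported count. At 1.5-fold in place of the reported thresholds, 1 member (cldn5a) was lower in mutant than in wildtype endothelial-like cells. In that comparison 4.02% and 3.23% of features were called higher and lower. At the same fold 1 member (pecam1) was lower in arterial-like than in venous-like cells of the mutant library. Esama also passed 1.5-fold there, higher in arterial-like cells, with log2 ratios of 0.71 in the mutant and 0.60 in the wildtype library. Shares of features at 1.5-fold between these 2 kinds are not given here. Between progenitor-like and endothelial-like cells, 1 member, cldn5a, was called higher in the mutant library at resolution 0.5, at resolution 2, with each library clustered alone and with the authors' clusters, and 1 in the wildtype library with the authors' clusters. The shares of all features called higher under those settings are not given here, so these counts have no background beside them. The log2 ratio of cldn5a turned positive in the mutant library, at 1.22, 1.22, 1.12 and 2.01 under those 4 settings in that order, and in the wildtype library, at 0.62, 0.65, 0.65 and 1.31. The larger progenitor-like classes also held more nanos1. Of 354 recomputed single values, these 8 reversed and 213 moved by more than counting error. Between genotypes the log2 ratio of cldn5a ran from −1.62 to −1.11, of pecam1 from −0.55 to −0.40 and of cldn5b from −0.43 to −0.32. In cells with at least 2 kdrl UMIs, that of clec14a came to 0.0007 and that of cdh5 to 0.08. The highest for cdh5 was 0.23, with the authors' clusters. Median-of-ratios scaling moved all log2 ratios between genotypes by −0.07. Depth limits the values of cldn5a, the gene of the 7 seen in the fewest cells. No paired analysis was possible because each genotype has 1 library.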
